A study of Mus musculus with 2 samples.

Results

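The gene family described here is the set of numbered zinc finger protein genes (symbols of the form Zfp followed by a number) on mouse chromosome 7, where 87 such genes lie, against 41 on chromosome 17, the next in number. Members were chosen by symbol and chromosome, without Zfp264, by a rule that does not use their levels, though earlier results of these data were known. The members are thus 87 of the 23219 genes named in all. Of these, 84 reached 1 FPKM in at least 1 library and were compared. Zfp78, Zfp114 and Zfp536 stayed under 1 FPKM in both libraries.

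The libraries were made from spermatogonial progenitor cells (SPCs), germ cells that sustain spermatogenesis, taken at postnatal day 8 from testes of the C57BL/6 strain. Dnmt3l knockout mice gave 1 library and wild-type mice gave 1. Dnmt3l encodes a partner of the de novo DNA methyltransferases that has no methyltransferase activity of its own. The series title concerns the role of DNMT3L in the quiescence of these cells. The labels do not say which part of Dnmt3l was removed, how many mice were pooled or how the cells were purified. With 1 library per genotype there is no replicate check, no test was made, and every value describes these libraries.

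Most C2H2 zinc finger proteins bind DNA through arrays of fingers, each of which contacts a few bases. Many of those encoded in gene clusters also carry a KRAB box, which recruits the co-repressor TRIM28 and, through it, the histone H3 lysine 9 methyltransferase SETDB1. KRAB zinc finger proteins are known for silencing transposable elements, and some of them, such as ZFP57 and ZFP445, protect imprinted DNA methylation in the mouse. Other members of the family lack the KRAB box. ZFP143 is an activator that binds promoters, and ZFP36 (tristetraprolin) is a CCCH protein that binds AU-rich elements in mRNA and promotes mRNA decay, so it shares a name with the others and not a finger type.

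A KRAB box was found by pattern in the GENCODE M21 coding sequences of 53 of the 87 members and not found in 32. Zfp36 was the CCCH member, and Zfp939 had no coding sequence. The C2H2 fingers counted by pattern ranged from 2 to 33 among compared members with a KRAB box (median 12) and from 1 to 27 among those without one (median 9). A diverged KRAB box can be missed by such a pattern, which did not find one in Zfp445, counted here among the genes without a KRAB box on other chromosomes, and the pattern was widened after the values had been seen.

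Members stood close together on the chromosome. With members under 500 kb apart joined, 76 of the 87 fell into 10 clusters and 11 stood alone. The largest cluster ran from Zfp84 to Zfp146 (chr7:29768552-30169727, mm10), with 15 members in 401.2 kb, 12 of them with a KRAB box. The next ran from Zfp180 to Zfp526 (chr7:24081944-25227505), with 14 members. The cluster from Zfp553 to Zfp646 (chr7:127233443-127885996) held 10 members.

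Because DNMT3L acts on DNA methylation, which is placed on CpG sites, promoter sequences are shown for 5 members with large ratios, without Zfp575 and Zfp524, for which no promoter was matched. They are RefSeq promoters of build GRCm38.p6, from 250 bases before to 50 after the transcript start, with each CpG in capitals. The first 3 members had higher values in the knockout library, the last 2 lower ones. Zfp36 is at chr7:28379179-28379478 (minus strand), Zfp771 at chr7:127244276-127244575 (plus), Zfp579 at chr7:4996052-4996351 (minus), Zfp526 at chr7:25221175-25221474 (plus) and Zfp936 at chr7:43177340-43177639 (plus).
Zfp36: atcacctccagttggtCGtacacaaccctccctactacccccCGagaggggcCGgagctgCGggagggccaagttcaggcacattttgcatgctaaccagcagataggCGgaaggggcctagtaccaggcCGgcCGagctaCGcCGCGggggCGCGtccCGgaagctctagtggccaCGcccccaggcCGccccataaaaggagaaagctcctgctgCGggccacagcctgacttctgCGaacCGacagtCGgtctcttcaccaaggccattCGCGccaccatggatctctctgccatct
Zfp771: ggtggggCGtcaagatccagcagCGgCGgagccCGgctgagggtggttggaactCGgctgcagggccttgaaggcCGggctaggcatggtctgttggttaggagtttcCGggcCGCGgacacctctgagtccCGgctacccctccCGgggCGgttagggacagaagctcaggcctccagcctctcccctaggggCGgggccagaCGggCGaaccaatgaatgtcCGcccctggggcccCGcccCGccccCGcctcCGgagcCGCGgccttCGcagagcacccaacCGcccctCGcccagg
Zfp579: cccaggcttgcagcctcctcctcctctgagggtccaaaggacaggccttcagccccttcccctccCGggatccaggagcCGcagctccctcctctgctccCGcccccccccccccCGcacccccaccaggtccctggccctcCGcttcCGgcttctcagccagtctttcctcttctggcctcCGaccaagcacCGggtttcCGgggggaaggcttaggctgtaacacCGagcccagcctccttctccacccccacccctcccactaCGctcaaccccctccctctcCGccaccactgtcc
Zfp526: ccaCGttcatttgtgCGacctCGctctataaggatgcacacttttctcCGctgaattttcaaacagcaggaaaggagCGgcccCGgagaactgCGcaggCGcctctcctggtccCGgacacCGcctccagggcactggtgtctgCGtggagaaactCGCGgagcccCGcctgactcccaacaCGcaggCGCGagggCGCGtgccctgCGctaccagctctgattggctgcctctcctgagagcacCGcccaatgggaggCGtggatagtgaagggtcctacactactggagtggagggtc
Zfp936: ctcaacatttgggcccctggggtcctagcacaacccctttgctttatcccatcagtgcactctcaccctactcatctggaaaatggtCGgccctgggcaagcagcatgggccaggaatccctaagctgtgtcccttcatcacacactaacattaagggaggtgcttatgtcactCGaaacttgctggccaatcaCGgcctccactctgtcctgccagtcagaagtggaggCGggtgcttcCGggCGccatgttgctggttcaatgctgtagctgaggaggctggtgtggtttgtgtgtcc
The Zfp771 promoter held 25 CpG sites, that of Zfp526 22, that of Zfp36 21, that of Zfp579 12 and that of Zfp936 6, so both a higher and a lower member had a CpG-rich promoter. A promoter was matched for 79 of the 87 members, 75 of them with a start within 100 bases of the start in the deposited files. Their CpG count had a median of 15 and ranged from 1 to 42, against a median of 14 over the 17672 genes with a promoter. Across the 77 compared members with a promoter, the CpG count and the log2 ratio between the libraries had a Spearman rho of 0.193, given as a description of genes that share the same libraries. Methylation itself was not measured here.

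A second promoter feature was examined. ZNF143, the human counterpart of the member Zfp143, binds at promoters a sequence whose core reads ACTACA, any 2 bases and then TCC. This ZNF143 motif, searched on both strands, was present in 22 of 79 member promoters (27.8%), against 28 of 215 promoters of numbered Zfp genes on other chromosomes (13.0%), 53 of 1622 other chromosome 7 promoters (3.27%) and 508 of 17672 in all (2.875%). It began before the transcript start in 21 of the 22, at a median of 64 bases upstream, and 2 promoters held it more than once. The next base after the motif was C in 21 of the 22 windows, and the next 5 were CAGAA in 11. Windows of 15 bases on each side are shown for 8 members, oriented along the motif, which is in capitals. They are 3 members named for their level or ratio, an end of the largest cluster, 2 of the most abundant holders and 2 of the 5 holders that were higher in the knockout library. Zfp60 is at chr7:27731329-27731369 (plus strand), Zfp420 at chr7:29859905-29859945 (plus), Zfp146 at chr7:30169845-30169885 (plus), Zfp84 at chr7:29768515-29768555 (minus), Zfp566 at chr7:30090561-30090601 (minus), Zfp260 at chr7:30095033-30095073 (minus), Zfp93 at chr7:24270332-24270372 (minus) and Zfp94 at chr7:24316798-24316838 (plus).
Zfp60: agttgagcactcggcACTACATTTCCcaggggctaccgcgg
Zfp420: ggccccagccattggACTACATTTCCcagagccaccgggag
Zfp146: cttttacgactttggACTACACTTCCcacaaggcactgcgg
Zfp84: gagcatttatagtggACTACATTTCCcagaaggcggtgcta
Zfp566: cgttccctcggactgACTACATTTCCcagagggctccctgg
Zfp260: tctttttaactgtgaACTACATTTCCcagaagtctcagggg
Zfp93: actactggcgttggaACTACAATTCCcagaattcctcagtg
Zfp94: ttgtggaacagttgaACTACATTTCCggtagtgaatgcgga
The other letters searched were no more frequent in member promoters than in all. GGGCGG (GC box) was present in 39.2% of member promoters and 47.6% of all, the letters TATAAA of the TATA box in 6.33% and 13.0%, and TGACGTCA (cyclic AMP response element) in 1 member promoter (1.27%) and 2.41% of all. The motifs were matched letter for letter on both strands, and a match is not a binding site.

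Values are FPKM, a measure of fragments scaled to transcript length and library size, summed over the RefSeq transcripts of a gene and the transcript models assembled on its strand. Each value has a lower and an upper bound from Cufflinks, summed over the same transcripts, which concern the estimate within a library and not the spread between animals. Such sums are not a confidence interval of the gene, and some estimates lie outside them. Ier2 in the knockout library was at 69.5 FPKM with bounds of 58.9 to 66.7, and C1qa at 142.7 FPKM with bounds of 115.0 to 128.2. Counts and ranges drawn from the bounds are therefore descriptions only. Read counts are not in the files, so depth is unknown. Ratios are log2 of knockout over wild-type after adding 1 FPKM to both, which understates the change of low genes. Over the 13792 genes compared the median ratio was 0.22, so a gene at 0 lies below the typical gene. Dnmt3l was listed at 0 in the knockout library and at 1.67 FPKM in the wild-type library. A listed 0 can be a failed estimate, since 183 compared genes were at 0 in the knockout library, among them the ribosomal protein gene Rpl26, at 147.2 FPKM in the wild-type library. Of 4 germ cell markers, Ddx4 and Dazl were lower and Dnd1 and Tex101 higher in the knockout library, and all 4 exceeded 40 FPKM in both: Ddx4 was at 122.7 FPKM in the knockout and 138.9 FPKM in the wild-type library, and Dazl at 136.7 FPKM in the knockout and 222.6 FPKM in the wild-type library. Of 10 markers of undifferentiated spermatogonia 9 had ratios above 0. Their list median was 0.29, near that of all genes, and -0.10 with the medians of GC bins removed. The exception was Zbtb16, at 27.9 FPKM in the knockout library (26.1 to 29.6) and 55.4 FPKM in the wild-type library (52.8 to 58.0). All 5 markers of differentiating spermatogonia had ratios below 0, with a median of -0.75 and a sum of 215.1 FPKM in the knockout and 287.4 FPKM in the wild-type library. For all genes compared the share above 0 was 66.0%. Most markers of somatic testis cells were higher in the knockout library. All 10 Sertoli markers had ratios above 0, with a sum of 1019 FPKM in the knockout and 438.5 FPKM in the wild-type library. Ratios were also above 0 for all 5 compared of 6 Leydig markers, 7 of 9 macrophage markers, 4 of 6 endothelial markers and 5 of 6 peritubular markers. The endothelial share, 66.7%, was near that of all genes. Below 0 were Cd68 and Ptprc (macrophage), Kdr and Tek (endothelial) and Myh11 (peritubular). The Leydig, macrophage, endothelial and peritubular lists summed in that order to 161.1, 816.5, 105.6 and 453.4 FPKM in the knockout library. In the wild-type library they summed to 72.8, 418.3, 52.2 and 293.6 FPKM. Among them the Leydig marker Star was at 0 in both libraries and the macrophage marker Cd68 at 0 in the knockout library. The part of these germ and somatic cells in the ratios of the zinc finger genes was not tested, and in bulk RNA fewer cells of a type and less RNA per cell cannot be told apart.

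As a family, the members differed little between the libraries. Their median level was 4.65 FPKM in the knockout library and 4.69 FPKM in the wild-type library, and 45 members stayed under 5 FPKM in both. Of the 84 compared, 43 had ratios above 0 and 41 below it, with a median of 0.016. The members were within 1.5-fold in 64 of 84 cases (76.2%), against 68.3% of all genes compared. Of these, 4 of 84 (4.76%) were at least 2-fold higher in the knockout library, where the background was 7.69% of all genes, and 3 of 84 (3.57%) were at least 2-fold lower, against a background of 3.5%. Both shares are close to or under the background and are no result about the family. At 1.5-fold, 11 members were higher and 9 lower, against backgrounds of 22.7% and 9.03%. Relative to the median gene of 1 FPKM or more in both libraries, which had a ratio of 0.21, 2 members were at least 2-fold higher and 4 lower, against 4.89% and 5.42% of all genes.

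The median of the family lay below that of its neighbours on the chromosome. The 977 other chromosome 7 genes compared had a median ratio of 0.39, and 110 of them were at least 2-fold higher and 23 at least 2-fold lower. The 244 numbered Zfp genes on other chromosomes had a median of -0.12, with 8 higher and 17 lower. With GC bins removed, members and numbered Zfp genes elsewhere had the same median, -0.15, against 0.08 for other chromosome 7 genes. With GC and then length bins removed the medians lay closer together, at -0.03, -0.04 and 0.05 in the same order. The 13 other zinc finger genes of chromosome 7 (Zscan, Zim, Zbtb and lettered Zfp genes) had a median of 0.19. Zim1, an imprinted neighbour of Peg3, was at 2.46 FPKM in the knockout library and 12.4 FPKM in the wild-type library. That difference rests on assembled models: its log2 ratio was -1.96 with them and 0 with RefSeq transcripts alone.

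Within the family, members with and without a KRAB box lay on different sides of 0. The 51 compared KRAB members had a median ratio of -0.15, with 20 above 0 and 31 below it. None of them was at least 2-fold higher, and 1, Zfp473, was at least 2-fold lower. The 31 compared members without a KRAB box had a median of 0.28, with 21 above 0 and 10 below it, and they held 3 of the 4 members at least 2-fold higher and 2 of the 3 at least 2-fold lower. KRAB members were also the less abundant class, with median levels of 3.43 FPKM in the knockout and 3.54 FPKM in the wild-type library. Members without the box had medians of 8.93 FPKM in the knockout and 7.06 FPKM in the wild-type library.

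In numbered Zfp genes on other chromosomes, the 115 in which a KRAB box was found had a median of -0.17 and the 127 in which none was found had a median of -0.02. Base composition moved with the classes. The median GC content of the longest transcript was 46.2% in KRAB members and 53.7% in members without the box. Across the 84 members the ratio had a Spearman rho of 0.489 with GC content and -0.468 with transcript length, and across all genes 0.33 (13547 genes) and -0.399 (13792 genes). The 11 members under 42% GC had a median of -0.43 and the 15 of 55% or more a median of 0.32, against -0.13 and 0.42 over all genes in those ranges. With the medians of 20 GC bins removed, an alternative added after the data were seen, the class medians were -0.19 with the box and -0.09 without it on chromosome 7, and -0.11 with the box and -0.16 without it elsewhere, where the order turned. With GC and then length bins removed they were -0.05 and 0.03 on chromosome 7 and -0.04 and -0.03 elsewhere. Without the assembled models the chromosome 7 medians were -0.05 and 0.

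**Figure D1:**
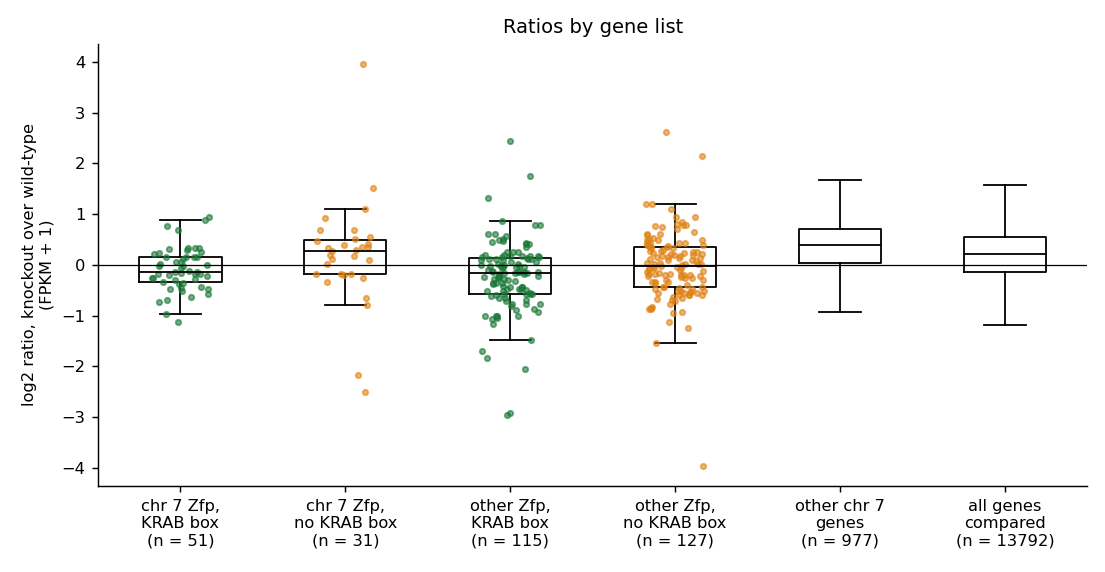
Log2 ratio of knockout over wild-type FPKM (1 added to each) by gene list, with boxes from the lower to the upper quartile, a line at the median, whiskers to 1.5 times the box and 1 point per gene in the Zfp lists. The median is -0.15 for chromosome 7 members with a KRAB box and 0.28 for those without, against 0.39 for other chromosome 7 genes and 0.22 for all genes compared.

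**Figure D2:**
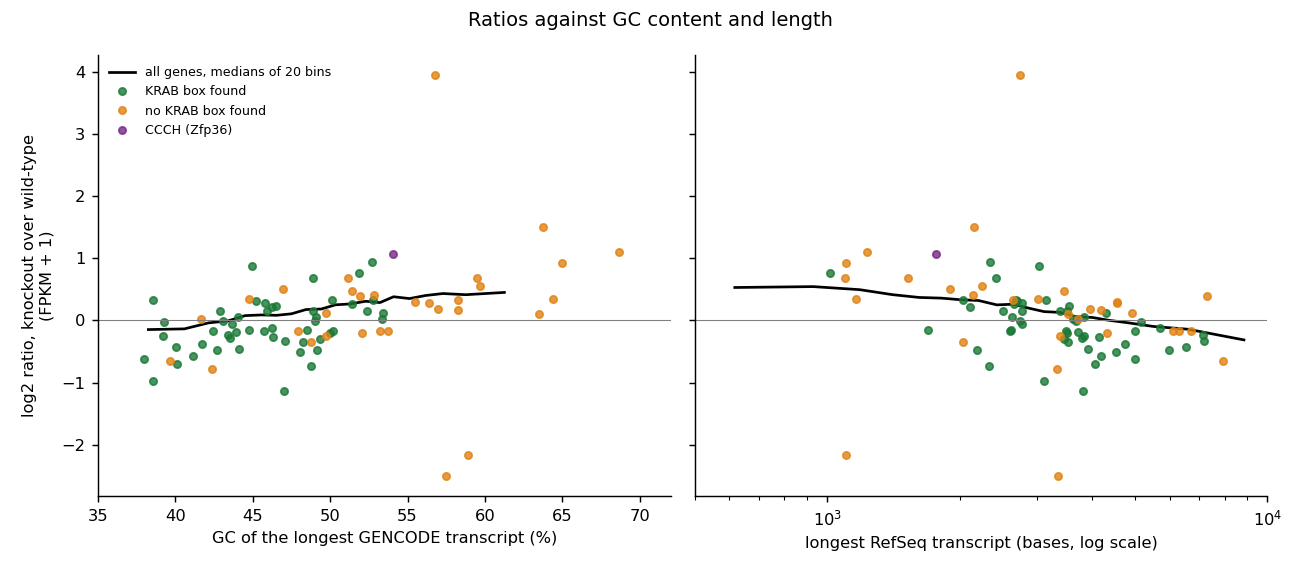
Log2 ratio of each compared member against the GC content (left) and the length (right, log scale) of its longest transcript, with the medians of all genes in 20 bins as a black line. Members follow the slope of the line in both panels, and most KRAB members lie on or under it.

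The member with the largest ratio was Zfp575 (chr7:24583838-24587641, minus strand, 4 exons), a C2H2 gene with 6 fingers by pattern and no KRAB box. It was at 28.7 FPKM in the knockout library (bounds 26.2 to 30.2) and 0.91 FPKM in the wild-type library (0.63 to 1.19), a 31.5-fold difference in FPKM without the added 1 (log2 ratio 3.96), with a range of 21.9 to 48.05 from the bounds. No assembled model contributed, so the value rests on 1 RefSeq transcript, and the bounds of the libraries lay far apart. In the knockout library its level exceeded that of 73.2% of the genes compared, against 5.6% in the wild-type library. The deposited values give 1 level per transcript, so which part of the gene the reads cover cannot be told. Ethe1, which starts on the opposite strand and overlaps its first exon, was at 9.55 FPKM in the knockout and 3.64 FPKM in the wild-type library. The protocol does not mark the strand, so reads in that overlap cannot be assigned to either gene.

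Zfp36, the decay factor, was the most abundant member in both libraries. It was at 73.5 FPKM in the knockout library (64.0 to 75.2) and 34.4 FPKM in the wild-type library (28.2 to 39.6), a log2 ratio of 1.08, or 2.14-fold in FPKM without the added 1, with a range of 1.61 to 2.67 from the bounds. It is also known as an immediate early gene, one whose transcription follows a stimulus within minutes. Of 15 compared genes in a list of immediate early genes and CCCH relatives, 14 (93.3%) had ratios above 0, against 66.0% of all genes, 2 of them, Zfp36l1 and Zfp36l2, by 0.02 or less. Of the 15, 3, Ier2, Junb and Ier3, were at least 2-fold higher. Ier2 was at 69.5 FPKM in the knockout library, above its own upper bound of 66.7, and 29.4 FPKM in the wild-type library (24.2 to 29.7). The list had a median ratio of 0.64, or 0.203 with GC and then length bins removed. The same removal gave Zfp36 a log2 ratio of 0.564. The CCCH relatives Zfp36l1, at 43.8 FPKM in the knockout and 43.3 FPKM in the wild-type library, and Zfp36l2, at 39.01 FPKM in the knockout and 38.98 FPKM in the wild-type library, had overlapping bounds.

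Zfp771 (chr7:127244526), with 8 fingers, was at 20.1 FPKM in the knockout library (17.1 to 23.1) and 8.82 FPKM in the wild-type library (7.35 to 10.3), a log2 ratio of 1.10. Zfp579, with 8 fingers, was at 19.02 FPKM in the knockout library (15.3 to 22.8) and 6.02 FPKM in the wild-type library (4.52 to 7.51), a log2 ratio of 1.51. These genes differ in what carries the value. For Zfp771 RefSeq transcripts alone gave a log2 ratio of 0.91, and the exon level, the mean level of all models over the exon bases, gave 1.07. For Zfp579 the RefSeq transcript was at 0 in the knockout and 1.20 FPKM in the wild-type library, and the ratio was 0.95 at the exon level and -1.14 without the models. Its direction therefore rests on assembled models. With GC and then length bins removed the log2 ratios were 0.385 for Zfp771 and 0.947 for Zfp579.

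Just under the 2-fold threshold on the log2(FPKM + 1) scale were Zfp61, at 15.4 FPKM in the knockout library (12.2 to 18.4) and 7.53 FPKM in the wild-type library (6.13 to 8.96), and Zfp580, at 10.1 FPKM in the knockout library (7.58 to 11.1) and 4.87 FPKM in the wild-type library (3.38 to 6.42). Their log2 ratios were 0.94 and 0.92, while the FPKM without the added 1 differed by 2.04-fold and 2.08-fold. Zfp61 is a KRAB member, and its ratio was 0.65 at the exon level and -0.16 without the models. Zfp580 has 3 fingers and no KRAB box, and its ratio was 1.28 with RefSeq transcripts alone. With GC and then length bins removed the log2 ratios were 0.569 for Zfp61 and 0.204 for Zfp580.

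The 3 members counted as at least 2-fold lower were all listed at 0 in the knockout library, so no fold is given. Listed zeros in the knockout library made up 1.33% of all genes compared, and zeros in the wild-type library 2.44%, with none of the members among the second kind. Zfp526, with 13 fingers, was at 0 there (upper bound 0.03) and at 4.68 FPKM in the wild-type library (4.03 to 5.31), with no assembled model in either. Zfp473 was at 0 in the knockout library (upper bound 0.03) and 1.20 FPKM in the wild-type library (0.58 to 1.83). Its human counterpart ZNF473 takes part in the processing of histone pre-mRNA. Zfp524 was at 0 in the knockout library (upper bound 0.1) and 3.49 FPKM in the wild-type library (2.11 to 4.81). In the knockout library a model assigned to its neighbour Zfp865 covered the exons of Zfp524 at a mean level of 3.53, so the exon level of Zfp524 was the same in both, with a log2 ratio of 0.03. That level is the FPKM of the Zfp865 model spread over its bases, so it does not show how many reads fell on Zfp524. Of the 100-base windows of Zfp524, 43.64% are also found in another gene on either strand, a count that includes genes annotated over the same bases.

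Among members above 0 in both libraries, Zfp936 had the lowest ratio. This KRAB gene with 11 fingers was at 6.41 FPKM in the knockout library (5.60 to 7.18) and 13.6 FPKM in the wild-type library (12.2 to 14.7), a log2 ratio of -0.98. Its value came from 1 RefSeq transcript with no assembled model in either library, so every way of summing gave the same ratio by construction. With GC bins removed the ratio was -0.83, and with GC and then length bins removed it was -0.77. Zfp420, with 19 fingers, was at 5.56 FPKM in the knockout library (4.54 to 6.57) and 10.3 FPKM in the wild-type library (8.15 to 12.4), a ratio of -0.79 that was -0.41 at the exon level and -0.11 with RefSeq transcripts alone. Zfp551 was at 1.54 FPKM in the knockout library (1.27 to 1.87) and 3.23 FPKM in the wild-type library (2.36 to 4.09), a ratio of -0.73, or -1.47 for RefSeq transcripts alone. The bounds of these genes did not overlap between the libraries. With GC and then length bins removed the ratios were -0.653 for Zfp420 and -0.972 for Zfp551.

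The next were Zfp60 (4.71 FPKM in the knockout and 8.24 FPKM in the wild-type library, a log2 ratio of -0.69), Zfp329 (3.25 FPKM in the knockout and 5.70 FPKM in the wild-type library, -0.66) and Zfp976 (1.72 FPKM in the knockout and 3.20 FPKM in the wild-type library, -0.63). Their bounds did not overlap either. Without the assembled models the ratios were -0.25 for Zfp60, -1.11 for Zfp329 and -1.16 for Zfp976, and at the exon level that of Zfp976 was -0.46. With GC and then length bins removed the ratios were -0.405 for Zfp60, -0.082 for Zfp329 and -0.275 for Zfp976. In Zfp976 7.13% of the 100-base windows of the longest transcript are found in another gene, most often Zfp975, so reads can be shared between the pair. Zfp975 was at 6.52 FPKM in the knockout and 4.97 FPKM in the wild-type library, the opposite direction.

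**Figure D3:**
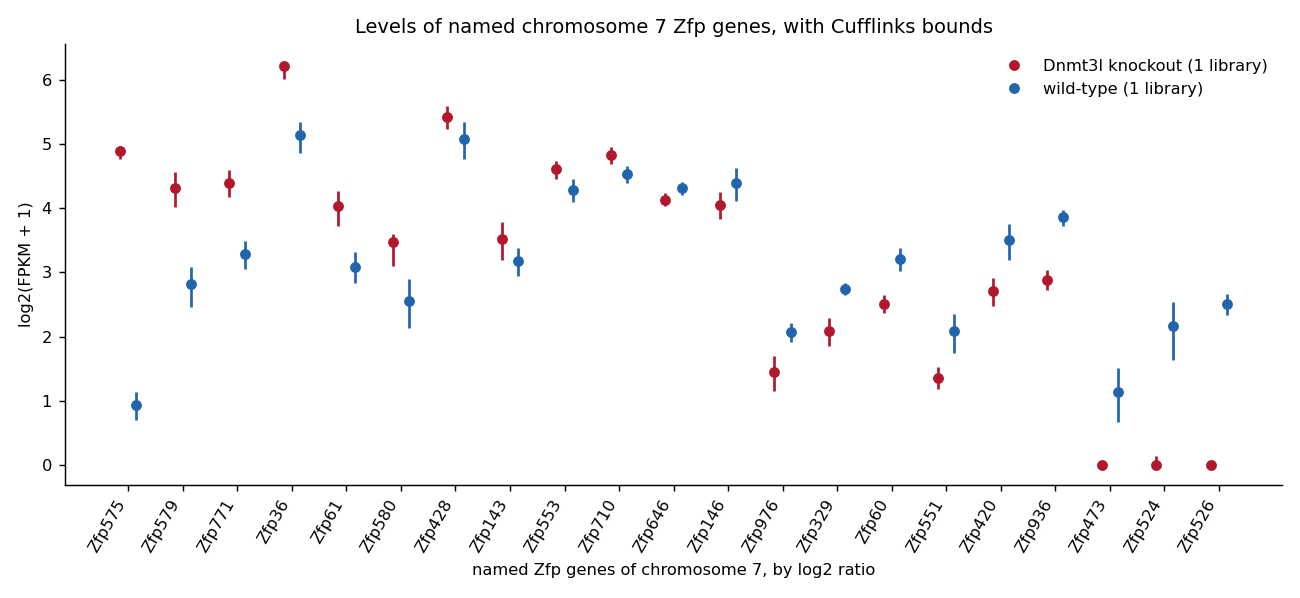
Levels of the 21 named members on the log2(FPKM + 1) scale, knockout library in red and wild-type library in blue, with lines over the Cufflinks bounds and 1 library per genotype. Zfp575 shows the widest gap, with 28.7 FPKM in the knockout and 0.91 FPKM in the wild-type library, and Zfp526, Zfp524 and Zfp473 sit at 0 in the knockout library.

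The other abundant members differed less between the libraries. Zfp428, with 1 finger, was at 42.1 FPKM in the knockout library (36.7 to 47.5) and 32.8 FPKM in the wild-type library (26.3 to 39.5). Zfp710 was at 27.5 FPKM in the knockout library (24.9 to 30.2) and 22.2 FPKM in the wild-type library (19.98 to 24.4). Zfp553 was at 23.4 FPKM in the knockout library (20.9 to 25.8) and 18.5 FPKM in the wild-type library (16.1 to 20.9). Bounds overlapped for Zfp428 and did not for Zfp710 and Zfp553, which lay apart by a small margin and whose ratios with RefSeq transcripts alone were -0.09 and -0.30. Zfp646, which has the most fingers of members without a KRAB box, 27, was at 16.6 FPKM in the knockout library and 18.9 FPKM in the wild-type library. Zfp146, whose protein is little more than its 10 fingers, was at 15.6 FPKM in the knockout library (13.3 to 18.1) and 20.1 FPKM in the wild-type library (16.4 to 23.7). Zfp143 was at 10.5 FPKM in the knockout library (8.18 to 12.8) and 8.03 FPKM in the wild-type library (6.68 to 9.40), a ratio of 0.35 with overlapping bounds, 0.07 at the exon level and -1.05 with RefSeq transcripts alone.

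Over all 84, the bounds lay apart in 27, against 51.6% of all genes, with 15 members higher in the knockout library and 12 lower. The typical member had a lower level than the typical gene, and the part of level in this count was not tested. Among all genes compared the bounds lay apart and higher in 35.5%, and apart and lower in 16.1%. Of the 10 KRAB members with bounds apart, 8 were lower and 2 higher, and of the 16 without a KRAB box, 4 were lower and 12 higher. The remaining one was Zfp36.

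Ratios differed in sign between clusters along the chromosome. In the cluster from Zfp84 to Zfp146, 13 of 15 members had ratios below 0, with a median of -0.18 (-0.41 with length bins removed and -0.35 for RefSeq transcripts alone) and a range of -0.79 to 0.22. The shifts were small: none reached 2-fold, and bounds lay apart for 1 member, Zfp420. The exceptions above 0 were Zfp82 (6.54 FPKM in the knockout and 5.46 FPKM in the wild-type library) and Zfp260 (14.4 FPKM in the knockout and 14.2 FPKM in the wild-type library), named after their values were seen. Zfp84, at the start, was at 2.16 FPKM in the knockout and 2.43 FPKM in the wild-type library. Zfp568, chosen for its role in repressing a placental promoter of Igf2 in the mouse, lies in this cluster and was at 4.92 FPKM in the knockout library (4.09 to 5.76) and 6.46 FPKM in the wild-type library (5.64 to 7.32), with overlapping bounds.

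Medians of about 0.3 were found in 3 clusters. The cluster from Zfp628 to Zfp580 (chr7:4915217-5053723), with 6 members and no KRAB box, had a median of 0.30, and 5 of 6 were above 0. The cluster from Zfp553 to Zfp646, with 4 KRAB members of 10, had a median of 0.33, with 8 above 0 and 2 below it. The cluster from Zfp954 to Zfp772 (chr7:7114683-7209998) differs from these in class, since all 4 members carry a KRAB box; all 4 ratios were above 0, with a median of 0.32. Its levels ranged from 1.40 to 6.54 FPKM in the knockout library and from 0.93 to 3.54 FPKM in the wild-type library. These medians depended on the processing. With length bins removed they were 0.11 from Zfp628 to Zfp580, 0.06 from Zfp553 to Zfp646 and 0.07 from Zfp954 to Zfp772. Leaving out the assembled models gave 0.009, 0.13 and 0.3 in the same order.

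The remaining clusters were mixed. From Zfp180 to Zfp526, 7 of 13 compared members were above 0 and 6 below it, with a median of 0.05 (-0.15 with length bins removed) and the widest range, -2.51 for Zfp526 to 3.96 for Zfp575. From Zfp976 to Zfp819 (chr7:42609526-43618279), where all 7 members carry a KRAB box, 3 were above 0 and 4 below it, with a median of -0.17 and bounds apart and lower in 3. From Zfp60 to Zfp36 (chr7:27731409-28379228), the 4 finger-array genes had ratios below 0 and Zfp36 stood alone above it. From Zfp787 to Zfp28 (chr7:6131489-6396637) the median was -0.01 over 5 members, and from Zfp551 to Zfp446 (chr7:12415149-12985716) it was 0.06 over 7. Both turned with the way of summing: the first was 0.30 at the exon level and 1.10 with RefSeq transcripts alone, and the second -0.06 and -0.98. In the pair of Zfp939 and Zfp619 the ratios were 0.02 and -0.48. The 10 compared members that stood alone had a median of 0.29, with 6 above 0 and 4 below it, and a median of 0.12 at the exon level and -0.06 for RefSeq transcripts alone.

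**Figure D4:**
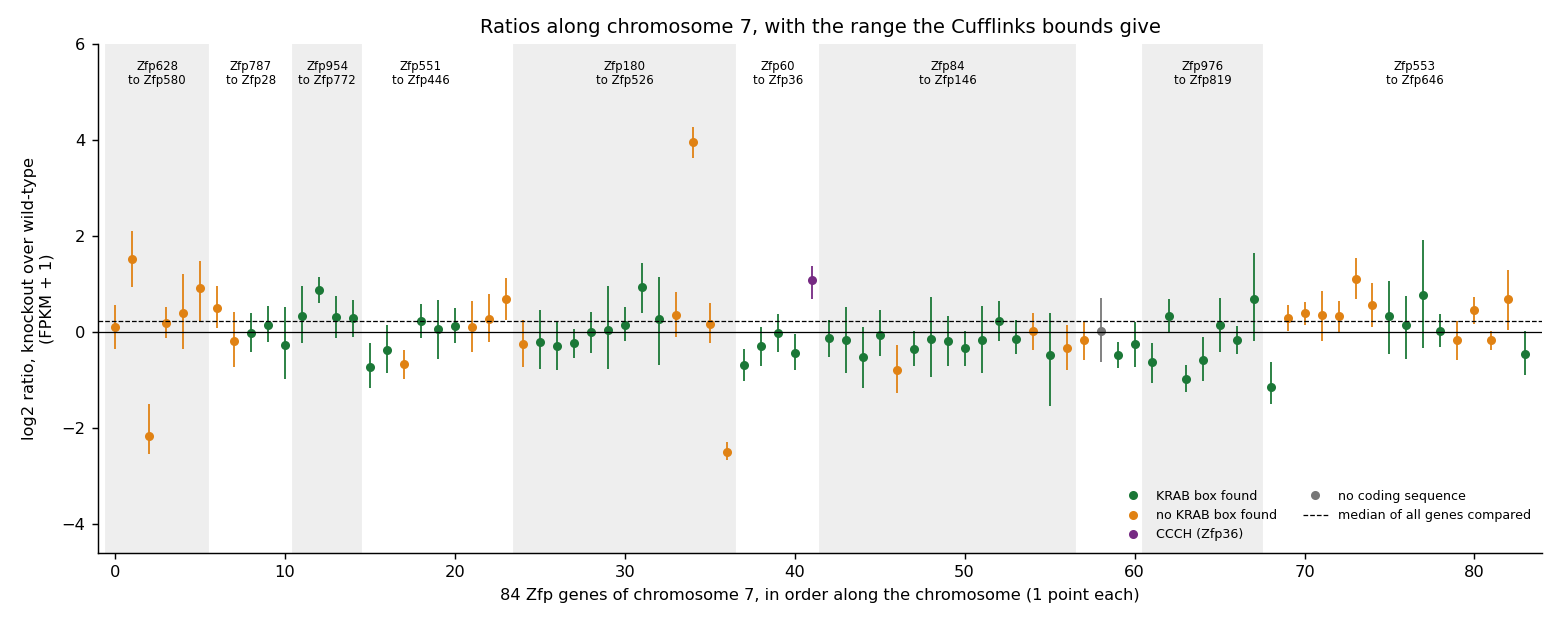
Log2 ratio of each of the 84 compared members in order along chromosome 7, coloured by protein class, with lines over the range that the bounds of both libraries give, and shading for alternate clusters of 2 or more members. In the cluster from Zfp84 to Zfp146, 13 of 15 points lie below 0, and the points farthest from 0 are Zfp575 at 3.96 and Zfp526 at -2.51.

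Members with and without the ZNF143 motif were set side by side. The 22 holders had a median ratio of -0.18, with 5 above 0 and 17 below it and a range of -0.79 to 0.26. The 55 compared members whose promoter lacks it had a median of 0.15, with 34 above 0 and 21 below it. The holders were concentrated in space: 10 of the 22 lie in the cluster from Zfp84 to Zfp146 and 7 in that from Zfp180 to Zfp526. Among KRAB members alone the medians were -0.15 for 17 holders and -0.01 for 33 others. With RefSeq transcripts alone, the medians were -0.06 for all holders and -0.02 for members without the motif, and among KRAB members the order turned, with 0 for holders and -0.15 for the others. Holders had a median GC content of 46.1% and a median length of 3509 bases, against 48.9% and 3101 bases in members without the motif, and the part of these features was not tested.

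The main partners of KRAB proteins were expressed in both libraries. Trim28 was at 170.0 FPKM in the knockout library (166.1 to 176.5) and 134.5 FPKM in the wild-type library (130.9 to 140.0), a log2 ratio of 0.34, above the family's median and that of all genes. Setdb1 was at 66.9 FPKM in the knockout library and 54.8 FPKM in the wild-type library, with a ratio of 0.28 that became -0.37 at the exon level and -1.31 with RefSeq transcripts alone. Of 26 compared genes in a list of co-repressor and heterochromatin partners, 11 had ratios above 0 and 15 below it, with a median of -0.07. None was at least 2-fold higher and 1 was at least 2-fold lower, Tasor, a subunit of the HUSH silencing complex. Tasor was at 5.16 FPKM in the knockout and 11.8 FPKM in the wild-type library. Its log2 ratio was -1.06, or -0.88 at the exon level and -0.70 with RefSeq transcripts alone. Cbx5, which encodes the heterochromatin protein HP1 alpha, was at 11.2 FPKM in the knockout library (10.6 to 11.7) and 20.5 FPKM in the wild-type library (19.6 to 21.5). Zfp57 was at 7.31 FPKM in the knockout library (5.04 to 9.64) and 4.48 FPKM in the wild-type library (3.28 to 5.81), with overlapping bounds. Zfp445 was at 12.9 FPKM in the knockout library (12.1 to 13.7) and 19.4 FPKM in the wild-type library (17.2 to 21.5). The log2 ratio of Zfp445 was -0.55, or -0.71 at the exon level and 0 with RefSeq transcripts alone.

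Much of the FPKM of the family was carried by assembled models rather than by RefSeq transcripts, and the share differed between the libraries gene by gene. Models carried 50% or more of the level in 35 compared members in the knockout library and in 31 in the wild-type library. In 15 members of the knockout library and 10 of the wild-type library the RefSeq transcripts were at 0 and models were not. With RefSeq transcripts alone the direction of the ratio changed in 19 of 84 members (22.6%), against 26.0% of all genes compared. At the exon level it changed in 9 of 84 (10.7%), against 10.3%. Zfp146 shows the effect: its RefSeq transcript was at 0 in the knockout and 8.87 FPKM in the wild-type library, its ratio with RefSeq transcripts alone was -3.30, and its ratio with models was -0.34 and at the exon level also -0.34.

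**Figure D5:**
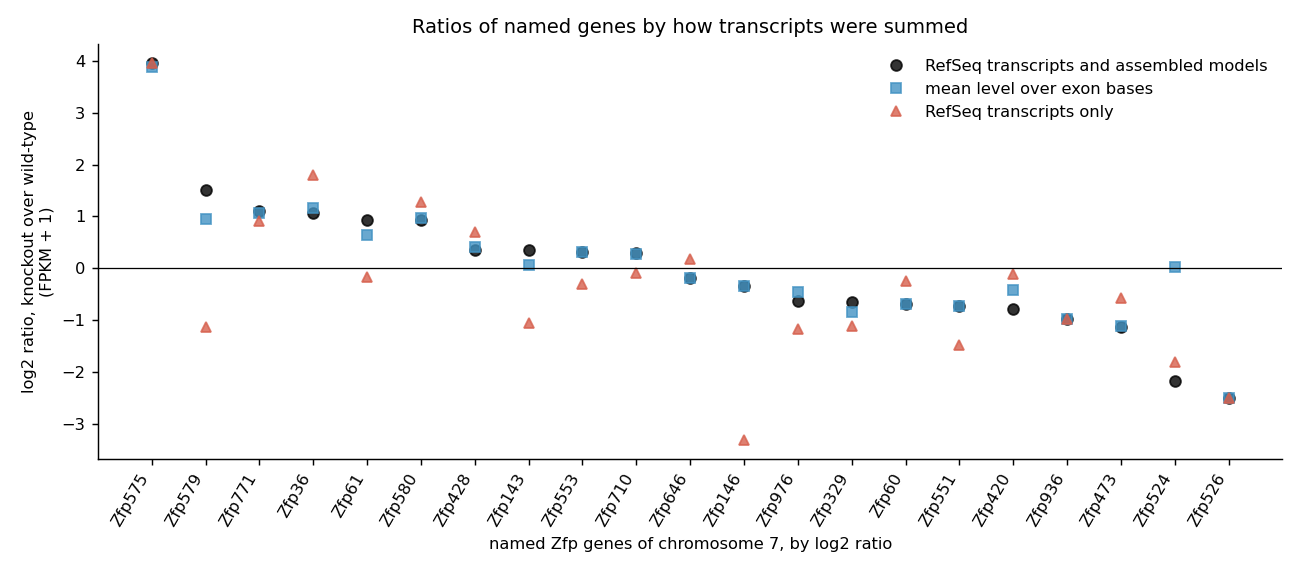
Log2 ratio of the 21 named members under 3 ways of summing, over RefSeq transcripts and models (circles), as the mean level over exon bases (squares) and over RefSeq transcripts alone (triangles). Zfp575, Zfp526 and Zfp936 have nearly the same ratio under all 3, while Zfp579, Zfp146 and Zfp524 do not. The first 3 have no assembled model in either library, so their ratios could hardly differ.

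Sequence shared with other genes was examined in windows. In 32 of 87 members at least 1 100-base window of the longest GENCODE transcript occurred in another gene, in 55 none did, and in 13 at least 10% of the windows did. Windows were matched on either strand, so genes annotated over the same bases count as well as repeated sequence. Zfp784 had the largest share, 94.6%, and was at 2.82 FPKM in the knockout and 1.89 FPKM in the wild-type library. It shared most with Zfp865, its neighbour on the opposite strand, whose RefSeq transcript ends before Zfp784 begins. Whether this share is repeated sequence or overlap in the GENCODE annotation was not tested. Levels of members with such shares are uncertain where reads can be placed on either gene. Across the 84 members the log2(FPKM + 1) values of the libraries had a Pearson's r of 0.79 and a Spearman's rho of 0.813. Across all genes these were 0.903 and 0.914, and genes are not independent replicates. Members covered a narrower range of levels, up to 73.5 FPKM in the knockout library, where Elob reached 499.8 FPKM. The part of this range in the correlations was not tested.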

How the data were processed

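Poly(A) RNA of spermatogonial progenitor cells was fragmented, copied with random primers and sequenced as paired ends, per the labels' protocols, with no step that marks the strand. CASAVA 1.9, TopHat2 2.0.8, Cufflinks 2.1.1 and build mm10 are named in the submitters' processing notes, without settings. The files that the authors deposited give an FPKM with bounds and a coverage per transcript, for 30073 RefSeq transcripts and for models assembled in that library. The score column, whose making no source used here describes, was left as the authors deposited it and not read. Samples were grouped by the genotype in their labels.

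Symbols came from RefSeq accessions, the GENCODE annotation of the same build or exon overlap. Models of at least 300 bases were added to the same-strand gene of largest exon overlap, and FPKM and bounds were summed per gene. The filter was 1 FPKM in at least 1 library and the pseudocount 1. No test was possible with 1 library per genotype. The members, lists and comparisons were chosen with earlier results of these data known. Named members are the 6 most abundant, the 6 highest and 6 lowest ratios above 0 in both libraries, those at 0 in 1 library, Zfp36 and Zfp143, and cluster ends. Other named genes are Dnmt3l, Trim28, Setdb1, Zfp57, Zfp445 and up to 3 of each list, and further ones are said to be chosen otherwise or illustrate a stated count. Protein classes were set, and promoters and GC content examined, after values were seen. The computation was tested on simulated data. Tools were Python 3.11.15, numpy 2.4.6, pandas 2.3.3, scipy 1.17.1 and matplotlib 3.10.9.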

Additional observations from a re-analysis of the deposited data

How the results depend on the processing

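No paired analysis was possible because each genotype has 1 library. The count of members at least 2-fold higher, 4 as reported, was 7 with a pseudocount of 0.1, with RefSeq transcripts only and with the coverage attribute, 2 with a pseudocount of 5, centring, upper-quartile scaling, length bins removed or GC bins removed, 1 with GC and then length bins removed, and 11 at 1.5-fold. The count at least 2-fold lower, 3 as reported, was 6 with a pseudocount of 0.1, 15 with RefSeq transcripts only, 9 at 1.5-fold, and 0 with a pseudocount of 5, a filter of 5 FPKM or members above 0 in both libraries. The median ratio, 0.016 as reported, was 0.207 with a filter of 5 FPKM, -0.189 after centring, -0.142 with upper-quartile scaling, 0.157 with the coverage attribute and -0.148 with GC bins removed. Zfp579 reversed to -1.137 with RefSeq transcripts only, and Zfp524 to 0.03 at the exon level, where a Zfp865 model covers it. For the other changes the cause was not tested. The remaining alternatives moved the counts by at most 1.5 times (from 3 to 2 lower members at the exon level and without members sharing windows) and the median by less than 0.1. Of the 21 named members, 13 kept 1 direction in all settings that gave them a value. The KRAB median stayed below that of members without a KRAB box in all 16 settings, by 0.048 to 0.478. The distance was smallest for RefSeq transcripts only. Not every setting could change it, since centring shifts both medians alike. The KRAB median minus the other was -0.423 as reported, -0.093 with GC bins removed and -0.083 with GC and then length bins removed. Alternatives on GC content and shared windows, and those of the class medians, were added after seeing the data. Depth is unknown, so low members rest on their bounds alone.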

Other observations

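On other chromosomes, the largest absolute ratios of numbered Zfp genes belonged to genes listed at 0 in the knockout library. Zfp513 on chromosome 5 was at 0 there, against 14.6 FPKM (bounds 12.1 to 16.8) in wild-type cells. Zfp97 on chromosome 17 was at 0 there and at 6.76 FPKM in the wild-type library (5.97 to 7.57), and Zfp960, on the same chromosome, at 0 in the knockout library and 6.58 FPKM (5.75 to 7.52) in the wild-type library. On chromosome 7, Zbtb32, which encodes a BTB zinc finger protein, went the other way, with 21.7 FPKM in the knockout library (17.1 to 25.8) and a listed 0 in the wild-type library (upper bound 0.07). Zfp607a was at 1.28 FPKM in the knockout library (0.99 to 1.56) and 0 in the wild-type library. Whether these zeros are absence or failed estimates was not tested.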
